A study of Mus musculus with 16 samples.

Results

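Integrins are the cell surface receptors for the extracellular matrix, and laminins are the main glycoproteins of basement membranes. The genes described here are those of the integrin and laminin chains, chosen by symbol alone (Itga or Itgb for integrin alpha and beta chains, and Lama, Lamb or Lamc for laminin alpha, beta and gamma chains). The rule found 37 of the 20325 genes in the deposited table: 18 integrin alpha chains, 8 integrin beta chains and 11 laminin chains. Polyadenylated RNA was sequenced from C3H10T1/2, a mouse cell line used as a model of mesenchymal stem cells. All cells carried a lentiviral transgene for a histone H3 and had been under puromycin at 1.5 µg/ml for 4 days after 2 days of transduction, so that no group is free of a transgene and each keeps the histone H3 genes of its own genome. The 8 groups expressed H3.3 wild type, H3.3 G34W, H3.3 G34R, H3.3 K27R, H3.3 G34W K27R or G34W K36R (both changes on 1 histone), or, as H3.1, the wild type or the G34W form, with 2 libraries each. H3.3 is the replication-independent and H3.1 the replication-dependent histone H3, and G34 mutations of H3.3 occur in tumours of bone and brain. The series asks how H3.3 G34 mutations alter transcription in these cells.

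An integrin is a heterodimer of 1 alpha and 1 beta chain that couples matrix outside the cell to actin and signalling proteins inside it. Most alpha chains pair with beta1, alpha v also pairs with beta3, beta5, beta6 and beta8, and the alpha chain decides largely which matrix is bound: collagen, laminin, or ligands with an RGD motif such as fibronectin. A laminin is a heterotrimer of 1 alpha, 1 beta and 1 gamma chain. The trimers with alpha3 and beta3 anchor epithelia through the integrin of alpha6 and beta4 in hemidesmosomes, whereas mesenchymal and vascular cells make trimers with alpha4 or alpha5, beta1 or beta2, and gamma1.

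Values are the deposited normalized expected counts. Estimated depth was 26.02 to 49.1 M reads a library, and 3 reads correspond to 2.27 to 3.74 in the deposited unit. All 10 mesenchymal markers listed were above 3 reads in all 16 libraries. So were 3 of 8 haematopoietic (1 of them, Csf1r, at 3 reads in its lowest library), 1 of 7 epithelial (Cdh1, 19.96 to 299.9) and 1 of 6 endothelial markers. The endothelial one was Tek, at 330.6 to 3037 in the H3.3 libraries and 59.6 to 228 in the H3.1 libraries, and the other 5, Pecam1 among them, were at or below 70.0 in every library. Ptprc was at or below 2.13 and Epcam at or below 1.21. The epithelial gene Krt14 is given beside Itgb4. The part of other cell types in the chains' values was not tested. In 5 groups the 2 libraries were nearly alike, and over the 32 tested chains the median ratio of the higher to the lower library was 1.05 to 1.07. In the H3.3 G34W pair and those of H3.1 wild type and G34W it was 1.59, 1.43 and 1.70, and 18, 15 and 21 of the 32 chains differed by over 1.5-fold between libraries. Nothing in the labels ties the libraries of a group to different cultures; the spread that p-values are based on may therefore be technical. The pair of H3.3 wild type differed by less than the sampling noise where reads were whole and was counted as 1 sample. Results were also computed with each of the 5 nearly alike pairs counted as 1 sample, called the close-pair fit here.

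Levels of different chains were compared only per kilobase of the longest annotated transcript. Itgb1, the common beta chain, was the highest of the 37 in every group, from 8224 per kb in H3.3 wild type to 17119 in H3.1 wild type (means of 2 libraries). In H3.3 wild type it was followed by Lamb2 (3098), Itgb5 (2137), Lama4 (1431), Itga5 (1219), Lamc1 (1069), Itgav (923) and Lamb3 (605). Of the 37 chains 32 had a mean of at least 10 and were tested. The other 5 were Itga2, a collagen receptor chain (0.758 to 10.9 over the libraries), the leukocyte chains Itgad (0 to 15.02), Itgam (0 to 38.6) and Itgax (0 to 1.11), and Lamc3 (0 to 33.8). Itgam was highest in H3.3 K27R (37.3 and 38.6) and at or below 6.81 in every other library. In the mouse annotation (GENCODE M21) 70.04% of its exon bases and 34.5% of those of Itga10 are also covered by another gene model, so that values of these 2 genes are uncertain.

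Over the 8 groups, 25 of the 32 tested chains differed (limma F test, adjusted p under 0.05), and so did 66.6% of all 12670 genes tested. The chains that did not pass were Itga2b, Itga6, Itgae, Itgb2, Itgb6, Itgb8 and Lamc1. In the close-pair fit 9 chains passed: Itga1, Itga3, Itga8, Itgal, Itgb4, Itgb7, Lama5, Lamb2 and Lamb3, against 8.13% of all genes. The group means of Itga8 and Lamb3 differed by 144-fold and 118-fold between the highest and the lowest group, those of Itgb1 by 2.08-fold and those of Lamc1 by 1.92-fold.

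**Figure D1:**
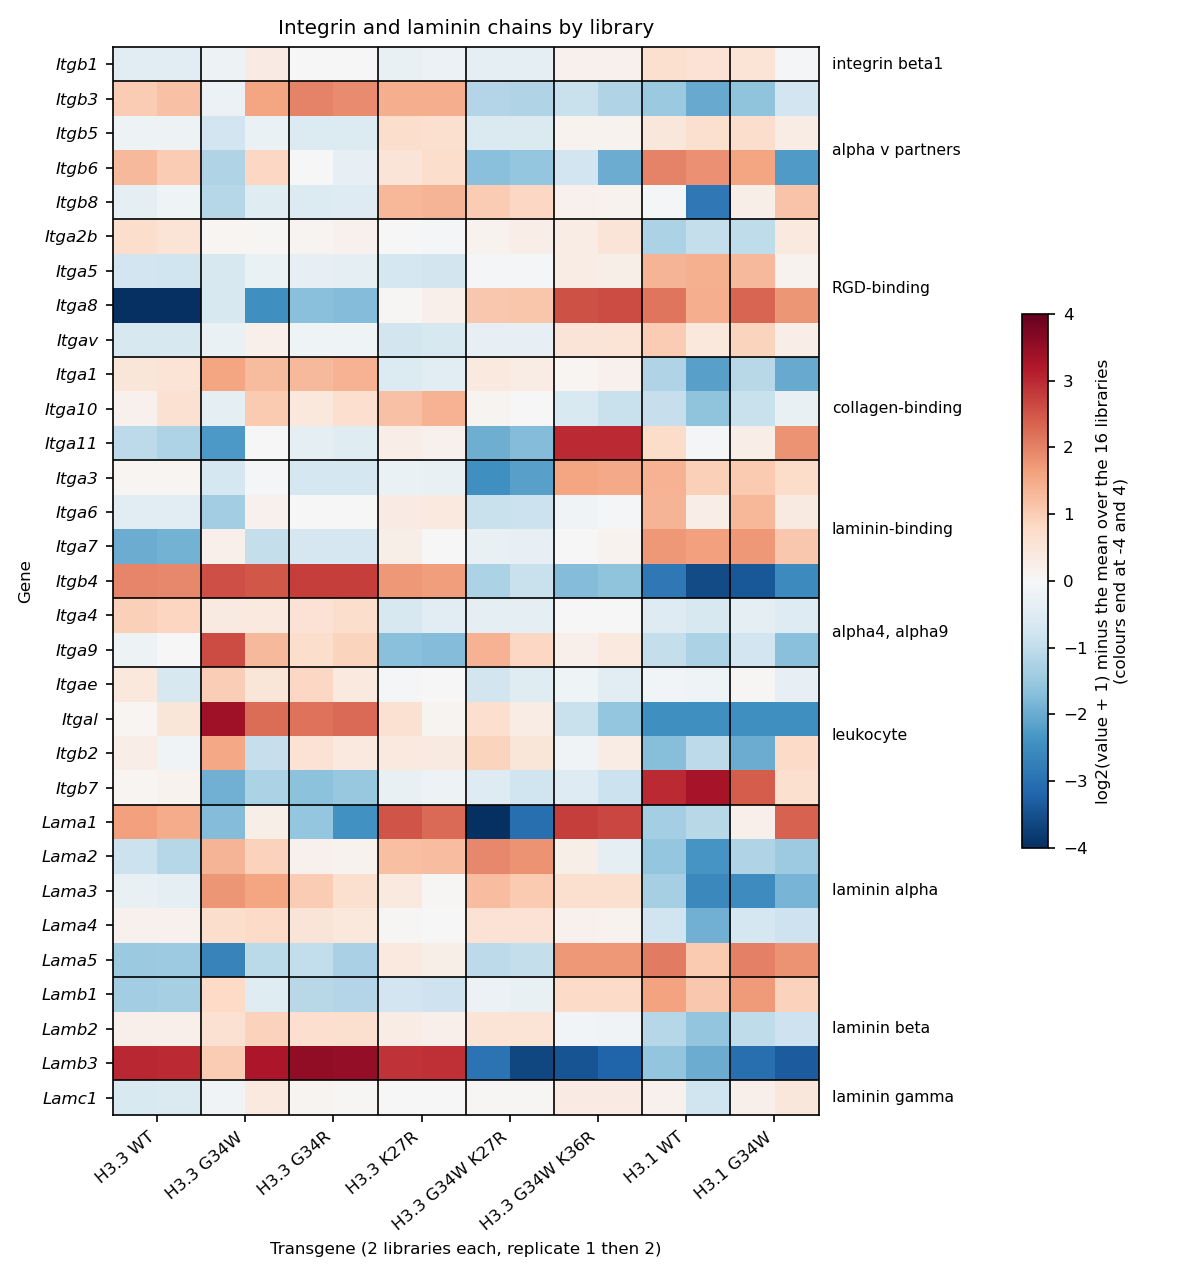
Each cell gives 1 library's log2(value + 1) of a gene minus that gene's mean over the 16 libraries, for 31 of the 32 tested chains in rows by role and the 8 groups in columns (2 libraries each). Lamb3 and Itgb4 are above their mean in H3.3 wild type, G34W, G34R and K27R and below it in the other 4 groups, and Itga8 is lowest in H3.3 wild type.

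H3.1 wild type was compared with H3.3 wild type to ask how the cells differ by histone type. Laminin beta1 and alpha5 and the integrin chains alpha8, alpha7, alpha5 and beta7 were higher with H3.1, and laminin beta3 and beta2 and integrin beta4, beta3 and alpha1 were lower. In all, 10 chains rose and 11 fell of 32 tested, against 16.3% higher and 17% lower of all genes (33.4% called). The other chains that rose were Itgav, Itga3, Itgb1 and Itgb5, and the other chains that fell were Itgal, Itga2b, Itga10, Lama3, Lama4 and Itga4. The median log2 fold change was -0.54, against -0.02 over all genes. In the close-pair fit 6 calls remained, for Itgb4, Lamb3, Itga8, Itga7, Lamb1 and Lama5, against 4.9% of all genes. No single left-out library ended these 6. The calls of Itga10 and Lama3 ended without H3.1 wild type replicate 2 or any library of G34W K27R, G34W K36R, G34R or K27R (adjusted p up to 0.122 and 0.132), and that of Itga10 also without H3.3 wild type replicate 2. The call of Itga2b ended without H3.1 wild type replicate 1 (adjusted p = 0.0523) and that of Itgb5 without replicate 2 (adjusted p = 0.0693). With quantile normalization the split was 9 higher and 7 lower, with 30.9% of all genes called and 53.7% of those higher.

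H3.3 G34W K27R and H3.3 G34W K36R were each compared with H3.3 G34W, which asks what a second change on the mutant tail alters; both comparisons share the G34W libraries. In G34W K27R 1 chain rose, Itga8, and 9 fell: Lamb3, Itgb4, Lama1, Itgal, Itga3, Itgb3, Itgae, Itga1 and Itga4. Of all genes 9.24% rose and 12.4% fell (21.6% called), and the median log2 fold change of the chains was -0.30 against -0.02 over all genes. With quantile normalization in place of the deposited scaling, the split was 3 higher and 7 lower, with 24% of all genes called and 49.3% of those higher. In G34W K36R 6 chains rose, Itga11, Itga8, Lama5, Lama1, Itga3 and Itgb5, and 8 fell: Lamb3, Itgb4, Itgal, Itgb3, Itga9, Itga1, Lama2 and Lamb2. Of all genes 14.4% rose and 16.2% fell (30.6% called), and the median of the chains was 0.15 against -0.03. Itgal and Itgae passed the filter only with G34W included, the group where they were highest. Their falls from G34W are in these counts but are no support. In the close-pair fit Lamb3 and Itgb4 were the 2 chains called in each comparison, against 2.74% and 1.04% of all genes. Without 1 of the G34W K27R libraries 5 and 5 chains were called (10.3% and 10.4% of all genes), and without replicates 1 and 2 of G34W K36R 9 and 8 (13.6% and 13%).

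**Figure D2:**
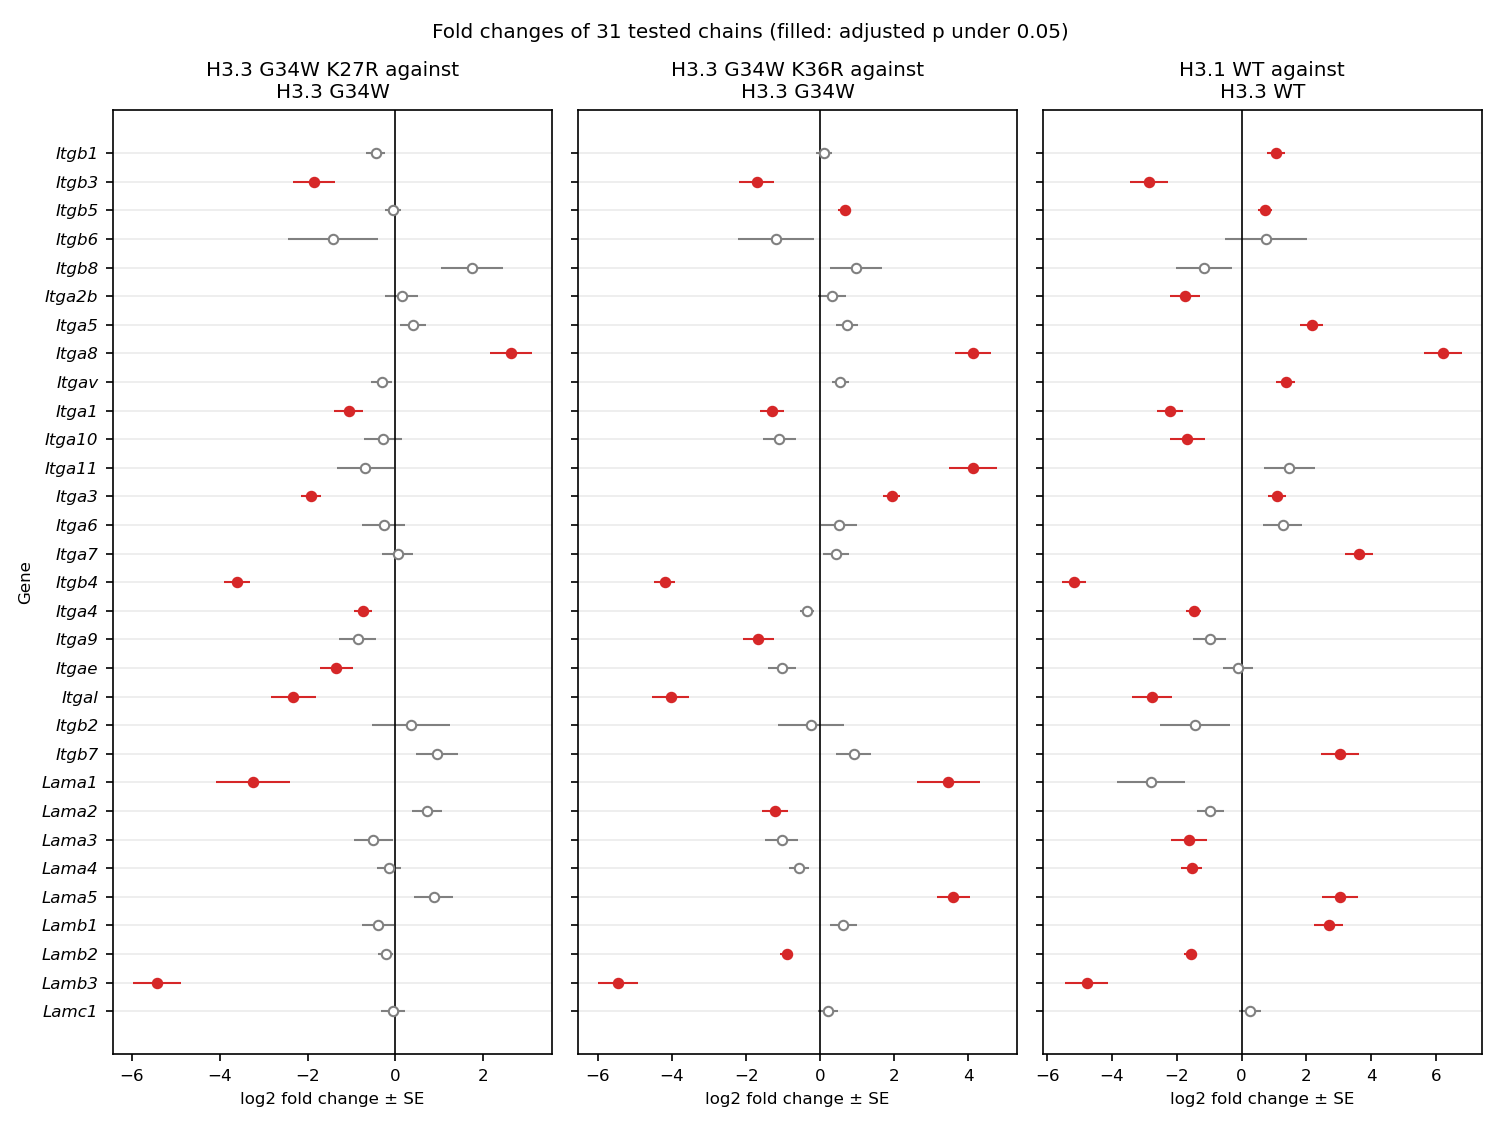
Points give the log2 fold change of 31 of the 32 tested chains with its SE from limma (horizontal bars), in 3 comparisons, with filled points for an adjusted p under 0.05. Lamb3 and Itgb4 lie at or below -3.60 in all 3 panels and Itga8 at or above 2.64, while Itga3 lies at -1.93 in the first panel and 1.94 in the second.

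The single substitutions in H3.3 were compared with H3.3 wild type, whose libraries all 3 comparisons share. In G34W 1 chain rose (Lama2) and none fell, against 0.75% higher and 0.434% lower of all genes (1.18% called). In G34R 1 chain rose (Itga8) and none fell, against 1.75% and 0.963% (2.72% called). In K27R Itga8, Lama2 and Itga7 rose and Itga4 fell, against 1.85% and 0.908% (2.75% called). The medians of the 32 chains were 0.28, 0.44 and 0.24, against 0.00, -0.01 and -0.01 over all genes. None of these calls held in the close-pair fit, which called 0 of all genes in each of the 3 comparisons. With both libraries of H3.3 wild type entered as samples 8, 7 and 7 chains were called, against 7.55%, 10.4% and 8.87% of all genes. With a replicate block added these were 7, 5 and 7, against 6.33%, 9% and 7.92%. Left-out libraries moved the counts to 0 to 9 in G34W, 0 to 3 in G34R and 1 to 7 in K27R. In G34W the 9 were reached without H3.3 G34W replicate 2 (12% of all genes called), and the count was 2 and 0 without H3.3 wild type replicates 1 and 2, 4 and 4 without those of H3.1 wild type, 3 and 3 without those of H3.1 G34W, and 0 without any library of G34W K27R, G34W K36R, G34R or K27R. In G34R it was 3 and 3 without the G34W libraries (7.78% and 7.79% of all genes), 2 and 2 without those of H3.1 G34W, and 0 without H3.3 wild type replicate 2 or any library of G34W K27R, G34W K36R, G34R or K27R. In K27R it was 7 and 7 without the G34W libraries (6.95% and 6.96%) and 1 and 1 without those of K27R.

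H3.1 G34W was compared with H3.1 wild type, which asks about the same change in the other histone. limma called 0 of 32 chains and 0% of all genes, with 7 chains at an unadjusted p under 0.05. These were Itgb8, Lama1, Lamc1 and Lamb2 with positive log2 fold changes (2.12, 2.51, 0.67 and 0.43) and Itgb7, Lamb3 and Itga5 with negative ones (-1.62, -1.39 and -0.67). Without H3.1 wild type replicate 1 the count was 4 (17.9% of all genes called), and without H3.1 G34W replicate 1 it was 6 (19.6%), so that the share of chains was no higher than that of all genes. The difference between the G34W effects in H3.1 and in H3.3, a test added to the planned ones, was called for 0 of 32 chains by limma (11 at an unadjusted p under 0.05) and for 0.197% of all genes (0.0868% higher and 0.11% lower).

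Lamb3 encodes the beta3 chain of the epithelial laminin that also holds alpha3. Its values were 2982 and 2906 in H3.3 wild type, 739 and 3459 in H3.3 G34W, 4244 and 4168 in H3.3 G34R and 2717 and 2753 in H3.3 K27R. They were 46.6 and 28.2 in H3.3 G34W K27R, 32.3 and 38.8 in H3.3 G34W K36R, 122 and 91.9 in H3.1 wild type and 44.6 and 35.4 in H3.1 G34W. Every library of the first 4 groups lay above every library of the last 4, and G34W replicate 1 was the lowest of the first. The log2 fold change was -5.42 ± 0.55 in G34W K27R and -5.46 ± 0.55 in G34W K36R against G34W (adjusted p = 8.58e-05 and 1.19e-04, and 0.0190 and 0.0335 in the close-pair fit). In H3.1 against H3.3 wild type it was -4.78 ± 0.67 (adjusted p = 7.10e-04, 0.0225 in the close-pair fit). Lama3, its alpha3 partner, did not follow the same order: it was low throughout (1.95 to 59.1), and its highest values were 59.1 and 51.4 in H3.3 G34W.

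Itgb4 encodes the beta4 chain, which pairs with alpha6 and binds the same laminin. It was at 1366 and 1328 in H3.3 wild type, 2070.5 and 1959 in H3.3 G34W, 2387 and 2397 in H3.3 G34R and 1156 and 1117 in H3.3 K27R. It was at 145 and 187 in H3.3 G34W K27R, 104 and 114 in H3.3 G34W K36R, 46.9 and 28.3 in H3.1 wild type and 32.1 and 58.5 in H3.1 G34W. The first 4 groups again lay above the last 4 with no overlap, and here the G34W libraries were close to each other. The log2 fold change was -3.60 ± 0.29 in G34W K27R and -4.20 ± 0.29 in G34W K36R against G34W (adjusted p = 2.15e-05 and 1.21e-05, 0.0169 and 0.0195 in the close-pair fit). It was -5.17 ± 0.36 in H3.1 against H3.3 wild type (adjusted p = 1.68e-05, 0.00452 in the close-pair fit). In the 3 single mutants against wild type, Lamb3 and Itgb4 were not called (log2 fold change 0.58 and 0.83 for Itgb4 in G34W and G34R). Its partner Itga6 did not differ by the F test (590.5 to 3968 over the libraries). A long non-coding RNA on the other strand overlaps 8.41% of the exon bases of Itgb4, and the deposited values are not stated to use strand. Krt14, a keratin of basal epithelia, was at 775 and 782 in H3.3 wild type, 2.82 and 171 in G34W, 77.4 and 78.7 in G34R and 560.0 and 567 in K27R, and at or below 1.95 in the other 4 groups. Of the 7 epithelial markers, Cdh1 alone was above 3 reads in all 16 libraries and 3 were above it in none. Their summed level was 23.3 to 979, and Krt14 made up 782 of the highest sum. Cdh1 followed the split of Lamb3 and Itgb4 except in G34W replicate 1, where it was at 26.3. Its other values were 86.2 to 299.9 in the first 4 groups and 19.96 to 80.8 in the last 4. Krt8 did not follow the split. Krt8 was at 0.968 and 1.94 in H3.3 wild type and at 23.5 and 27.4 in H3.1 wild type. The split of Lamb3 and Itgb4 was also seen, without overlap, in Itgb3 (532 to 2532 against 157 to 373). The haematopoietic marker Lyz2 showed it too (75.3 to 136.5 against 7.25 to 33.2). The share of all genes with this split was not computed. The part of epithelial-type cells in the values of Lamb3 and Itgb4 was not tested. In bulk RNA, fewer such cells and less RNA per cell cannot be told apart.

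**Figure D3:**
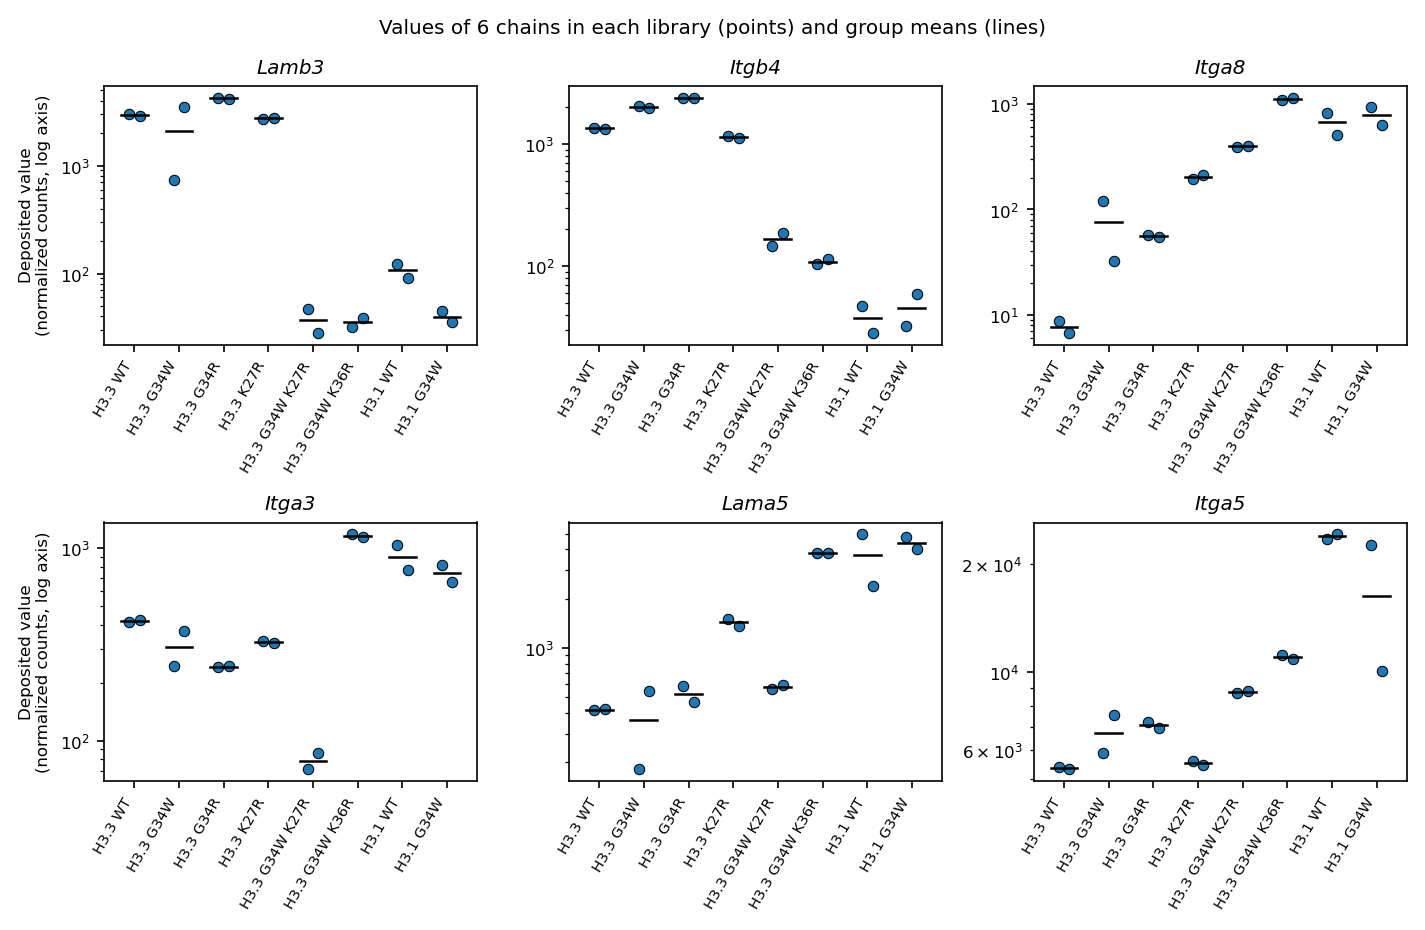
Points give the deposited value of each library on a log axis and short lines the mean of the 2 libraries, for 6 chains over the 8 groups. Lamb3 and Itgb4 fall into 4 high and 4 low groups, Itga8 is below 10 in H3.3 wild type alone, and Itga3 is lowest in G34W K27R and highest in G34W K36R.

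Itga8 encodes the alpha8 chain, an RGD-binding partner of beta1 that is found on fibroblasts and smooth muscle. It was at 8.71 and 6.78 in H3.3 wild type, 119 and 32.8 in H3.3 G34W, 57.1 and 54.4 in H3.3 G34R and 192 and 214 in H3.3 K27R. It was at 393 and 398 in H3.3 G34W K27R, 1081 and 1143 in H3.3 G34W K36R, 826 and 507 in H3.1 wild type and 937 and 629.8 in H3.1 G34W. Both H3.3 wild-type libraries were below every other library, and those of G34W K36R were above every other. Against H3.3 wild type the log2 fold change was 2.70 ± 0.59 in G34R (adjusted p = 0.0406), 4.54 ± 0.59 in K27R (adjusted p = 0.00326) and 6.21 ± 0.59 in H3.1 wild type (adjusted p = 7.64e-05). In the close-pair fit the adjusted p was 1, 0.484 and 0.00902. Leaving out either G34R library, H3.3 wild type replicate 2 or any library of K27R or the double mutants ended the G34R call (adjusted p up to 0.194). In G34W the log2 fold change was 2.87 and was not called (adjusted p = 0.0506). Against G34W it was 2.64 ± 0.48 in G34W K27R and 4.13 ± 0.48 in G34W K36R (adjusted p = 0.00322 and 2.67e-04, 0.168 and 0.06001 in the close-pair fit). An antisense gene overlaps 6.40% of its exon bases.

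Promoter sequences are shown for 2 chains that were low and 2 that were high in H3.1 wild type, picked after their values were seen, as examples; they do not stand for all chains that fell or rose. They are RefSeq's, on GRCm38.p6, from 250 bases before to 50 after the start, read 5′ to 3′ on the gene's strand; CG pairs, the sites of DNA methylation, are in capitals. Lamb3 (chr1:193301744-193302043, plus strand) and Itga1 (chr13:115101915-115102214, minus strand) fell, and Itga8 (chr2:12301895-12302194, minus strand) and Lama5 (chr2:180225810-180226109, minus strand) rose.
Lamb3: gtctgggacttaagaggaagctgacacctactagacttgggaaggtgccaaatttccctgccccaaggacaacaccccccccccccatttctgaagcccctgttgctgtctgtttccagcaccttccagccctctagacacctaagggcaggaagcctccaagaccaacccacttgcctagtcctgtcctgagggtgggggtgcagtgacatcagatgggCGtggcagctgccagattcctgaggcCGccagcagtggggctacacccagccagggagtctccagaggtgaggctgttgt
Itga1: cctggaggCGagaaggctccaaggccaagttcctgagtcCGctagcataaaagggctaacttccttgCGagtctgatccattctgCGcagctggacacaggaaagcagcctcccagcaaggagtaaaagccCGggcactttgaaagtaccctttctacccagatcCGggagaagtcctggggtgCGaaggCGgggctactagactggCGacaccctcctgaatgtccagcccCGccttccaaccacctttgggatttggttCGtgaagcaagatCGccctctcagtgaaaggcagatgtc
Itga8: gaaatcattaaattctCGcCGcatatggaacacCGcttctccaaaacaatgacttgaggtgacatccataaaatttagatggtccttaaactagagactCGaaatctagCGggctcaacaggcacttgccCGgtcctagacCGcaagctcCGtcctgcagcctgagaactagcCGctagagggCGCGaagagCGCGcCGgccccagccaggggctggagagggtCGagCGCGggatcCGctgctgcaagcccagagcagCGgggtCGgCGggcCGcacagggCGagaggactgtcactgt
Lama5: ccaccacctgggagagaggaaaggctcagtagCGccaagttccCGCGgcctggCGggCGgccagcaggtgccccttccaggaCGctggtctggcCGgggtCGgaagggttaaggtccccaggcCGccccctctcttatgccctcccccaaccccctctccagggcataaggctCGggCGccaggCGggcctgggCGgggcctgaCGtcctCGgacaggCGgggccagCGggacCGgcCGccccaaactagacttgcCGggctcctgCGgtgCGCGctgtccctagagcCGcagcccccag
These windows hold 2, 12, 23 and 24 CG pairs. Of all 32851 promoter windows of this length in the table, 85.9%, 39.6%, 21.5% and 19.98% held at least as many (median 7). A second Lamb3 window that overlaps the first held 5. Over all matched chains called in H3.1 wild type, the windows of those that fell held 2 to 12 CG pairs and of those that rose 5 to 27. Itgb7, which rose, held 5, and the 2 windows of Itga3, which rose, held 5 and 24. The table matched 23 of the 37 chains with 26 windows. The AP-1 motif TGAGTCA, searched on both strands, was in 2 of these 26 (Itga9 and Itgax) and in 5.20% of all windows, and the E-box CACCTG, searched likewise, in 8 and in 20.2%. Where the 2 motifs adjoin they can share the letters CA or TG. A match of letters shows no binding.

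The laminin alpha chains decide which receptors a laminin binds. Lama5, a chain of vascular and epithelial basement membranes, was at 416 and 422 in H3.3 wild type, 181 and 547 in H3.3 G34W, 582 and 469 in H3.3 G34R and 1513 and 1369.8 in H3.3 K27R. It was at 558 and 596 in H3.3 G34W K27R, 3828 and 3829 in H3.3 G34W K36R, 4955 and 2398 in H3.1 wild type and 4737 and 4007 in H3.1 G34W. It rose in G34W K36R against G34W (log2 fold change 3.60 ± 0.44, adjusted p = 3.66e-04, 0.0589 in the close-pair fit) and in H3.1 against H3.3 wild type (log2 fold change 3.04 ± 0.54, adjusted p = 0.00253, 0.0477 in the close-pair fit), with no overlap in either. Of all genes 69.9% and 77.2% had no overlap in these 2 comparisons. In G34W K27R Lama5 was not called against G34W (adjusted p = 0.2002). Lama4, the main alpha chain of these cells, was at 8619.7 and 8681 in H3.3 wild type and 4386 and 1998 in H3.1 wild type and fell (log2 fold change -1.55 ± 0.33, adjusted p = 0.00646, 0.104 in the close-pair fit). Per kb, Lama4 was 38.7-fold to 39.01-fold Lama5 in H3.3 wild type, 4.14-fold to 4.24-fold in G34W K36R and 1.57-fold to 2.04-fold in the 4 H3.1 libraries. Lama4 was thus above Lama5 in all 16 libraries.

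Lama2, the alpha2 chain of muscle and nerve basement membranes, was at 21.3 and 17.4 in H3.3 wild type, 102 and 76.5 in H3.3 G34W and 93.6 and 94.7 in H3.3 K27R. It rose against wild type in G34W (log2 fold change 2.14 ± 0.42, adjusted p = 0.0457) and in K27R (log2 fold change 2.22 ± 0.42, adjusted p = 0.0206), with an adjusted p of 1 and 1 in the close-pair fit. The first call ended when any 1 of 10 libraries was left out, G34W replicate 1 and H3.3 wild type replicate 2 among them (adjusted p up to 0.106), and the second without either K27R library (up to 0.130). It was highest in G34W K27R (152 and 140.1) and lower in G34W K36R (46.96 and 29.97) than in G34W (log2 fold change -1.22 ± 0.35, adjusted p = 0.0240, 0.503 in the close-pair fit). Leaving out G34W replicate 1 or G34W K36R replicate 2 ended that call (adjusted p up to 0.189). Lama1, an alpha chain of embryonic basement membranes, was at 97.8 and 88.1 in H3.3 wild type, 8.45 and 36.1 in H3.3 G34W, 9.70 and 4.83 in H3.3 G34R and 181 and 152 in H3.3 K27R. It was at 0 and 2.92 in H3.3 G34W K27R, 214 and 198 in H3.3 G34W K36R, 11.4 and 13.7 in H3.1 wild type and 35.2 and 161 in H3.1 G34W. It rose in G34W K36R against G34W (log2 fold change 3.47 ± 0.85, adjusted p = 0.0125, 0.232 in the close-pair fit). In G34W K27R it was at or under 3 reads in both libraries (adjusted p = 0.0216 against G34W, 0.331 in the close-pair fit). Leaving out G34W replicate 2 or G34W K27R replicate 1 ended the latter call (adjusted p up to 0.183), and leaving out G34W replicate 1 or either G34W K36R library the former (up to 0.0751).

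Of the laminin beta chains, Lamb1 was at 1783 and 1837 in H3.3 wild type, 7978 and 3283 in H3.3 G34W, 2154 and 2056 in H3.3 G34R and 2722 and 2615 in H3.3 K27R. It was at 3943 and 3816 in H3.3 G34W K27R, 7896 and 7866 in H3.3 G34W K36R, 14053 and 9700.2 in H3.1 wild type and 15075 and 8847 in H3.1 G34W. H3.3 wild type was lowest and the G34W libraries differed from each other by over 2-fold. It rose in H3.1 against H3.3 wild type (log2 fold change 2.69 ± 0.45, adjusted p = 0.00175, 0.0440 in the close-pair fit). No other comparison called it (adjusted p = 0.164 in G34W and 0.221 in G34W K36R against G34W). Lamb2, the beta2 chain, was at 17465 and 17416 in H3.3 wild type, 22916 and 28659 in H3.3 G34W, 13803 and 13606 in H3.3 G34W K36R and 6833 and 5026 in H3.1 wild type. It fell in H3.1 wild type (log2 fold change -1.57 ± 0.21, adjusted p = 4.89e-04, 0.0561 in the close-pair fit) and in G34W K36R against G34W (log2 fold change -0.90 ± 0.17, adjusted p = 0.00351, 0.337 in the close-pair fit). Per kb, Lamb1 was 0.0856-fold to 0.339-fold Lamb2 in H3.3 groups other than G34W K36R, 0.557-fold and 0.563-fold in G34W K36R, and 1.88-fold to 2.00-fold in 3 of the 4 H3.1 libraries. In H3.1 G34W replicate 2 the ratio was 1.02. Lamc1, the gamma chain of most laminins, was at 8139 and 8156 in H3.3 wild type, 11047 and 16053 in H3.3 G34W, 13202 and 12653 in H3.3 G34R and 12558 and 12433 in H3.3 K27R. It was at 12739 and 12709 in H3.3 G34W K27R, 15378 and 15317 in H3.3 G34W K36R, 13739.5 and 7019.7 in H3.1 wild type and 14312 and 17017 in H3.1 G34W, and no comparison called it.

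**Figure D4:**
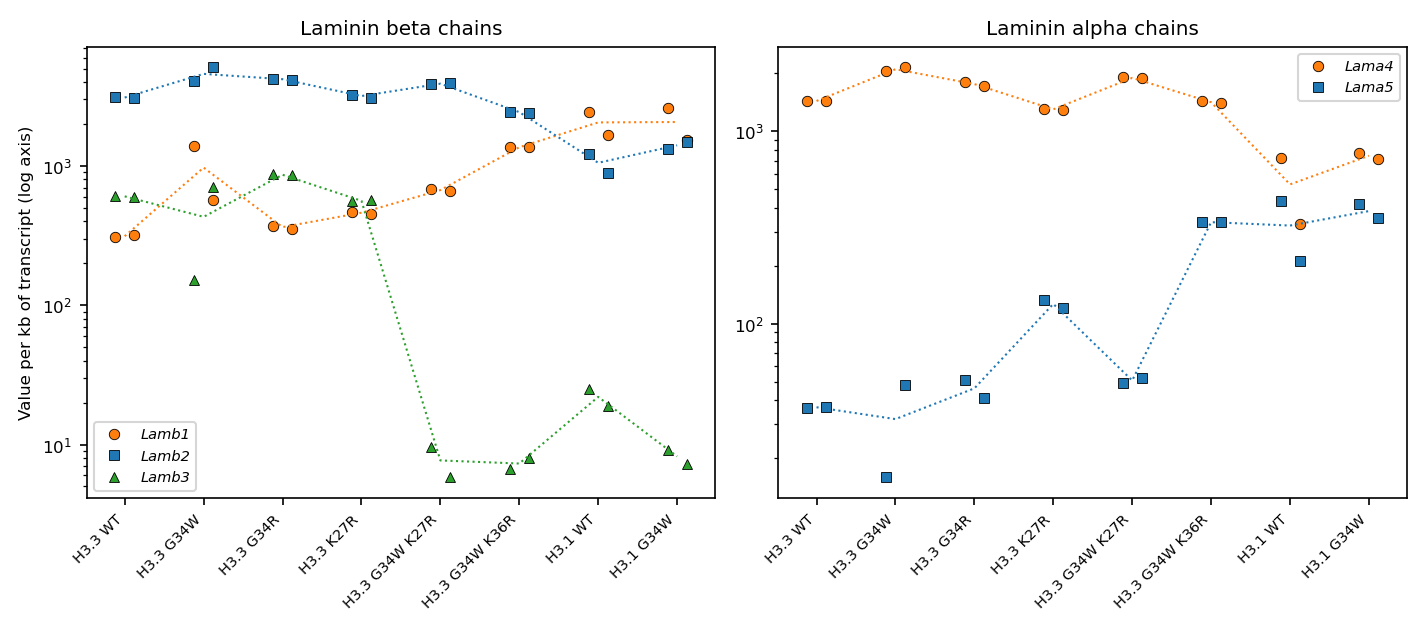
Points give values per kb of the longest annotated transcript in each library on a log axis, for laminin beta chains (left) and 2 alpha chains (right), and dotted lines join the group means. Lamb1 lies below Lamb2 in all H3.3 libraries and above it in the 4 H3.1 libraries, and Lama4 lies above Lama5 in every library.

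Among the other laminin receptors, Itga3, which pairs with beta1, was at 413 and 421 in H3.3 wild type, 243 and 372 in H3.3 G34W, 239.9 and 243 in H3.3 G34R and 329.6 and 320.3 in H3.3 K27R. It was at 70.98 and 86.6 in H3.3 G34W K27R, 1178 and 1136 in H3.3 G34W K36R, 1034 and 768 in H3.1 wild type and 812 and 663 in H3.1 G34W. It fell in G34W K27R (log2 fold change -1.93 ± 0.23, adjusted p = 2.14e-04) and rose in G34W K36R (log2 fold change 1.94 ± 0.23, adjusted p = 2.79e-04) against G34W, with no overlap. Of all genes 62.1% and 69.9% had no overlap in these 2 comparisons. In the close-pair fit the adjusted p of Itga3 was 0.0721 and 0.105. It also rose in H3.1 wild type (log2 fold change 1.09, adjusted p = 0.0140, 0.184 in the close-pair fit). Itga7, a laminin receptor chain of muscle, was at 30.01 and 31.96 in H3.3 wild type, 141 and 123 in H3.3 K27R and 408 and 382 in H3.1 wild type. It rose in H3.1 wild type (log2 fold change 3.63 ± 0.43, adjusted p = 2.81e-04, 0.0240 in the close-pair fit) and in K27R (log2 fold change 2.06 ± 0.43, adjusted p = 0.0323, 1 in the close-pair fit). Leaving out any library of K27R, G34R or either double mutant ended the K27R call (adjusted p up to 0.184). Both H3.3 wild-type libraries were below every other library and the 4 H3.1 libraries above every other.

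Of the collagen receptor chains, alpha1 fell and alpha11 rose in G34W K36R against G34W. Itga1 was at 2229 and 2310.2 in H3.3 wild type, 4750.1 and 3794 in H3.3 G34W, 3923 and 4162 in H3.3 G34R and 1082 and 1159 in H3.3 K27R. It was at 2077 and 1973 in H3.3 G34W K27R, 1676 and 1799 in H3.3 G34W K36R, 686 and 351 in H3.1 wild type and 742 and 394 in H3.1 G34W. It fell in G34W K27R and G34W K36R against G34W (log2 fold change -1.07 and -1.29, adjusted p = 0.0380 and 0.0133, 0.505 and 0.331 in the close-pair fit) and in H3.1 wild type (log2 fold change -2.21 ± 0.39, adjusted p = 0.00246, 0.0567 in the close-pair fit). The first of these calls ended when any 1 of 10 libraries was left out (adjusted p up to 0.169), each library of the 2 groups compared among them, and the second without G34W replicate 1 or either G34W K36R library (up to 0.0795). Itga11 was at 193 and 169.7 in H3.3 wild type, 80.7 and 396 in H3.3 G34W, 308 and 287 in H3.3 G34R and 479 and 446 in H3.3 K27R. It was at 103 and 119.7 in H3.3 G34W K27R, 3178 and 3167 in H3.3 G34W K36R, 661 and 386 in H3.1 wild type and 481 and 1383 in H3.1 G34W. It rose in G34W K36R against G34W (log2 fold change 4.14 ± 0.65, adjusted p = 0.00140, 0.120 in the close-pair fit), and both G34W K36R libraries were above every other library. In H3.1 wild type its log2 fold change of 1.47 was not called (adjusted p = 0.175). Itga10, which binds cartilage collagen, was at 73.6 and 99.8 in H3.3 wild type and 34.1 and 20.5 in H3.1 wild type and fell (log2 fold change -1.67, adjusted p = 0.0362, 0.241 in the close-pair fit).

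Of the receptors for fibronectin and other RGD ligands, Itga5, the alpha chain of the main fibronectin receptor, was at 5377 and 5307 in H3.3 wild type, 5917 and 7532 in H3.3 G34W, 7232 and 6917 in H3.3 G34R and 5592 and 5473 in H3.3 K27R. It was at 8686 and 8838 in H3.3 G34W K27R, 11151 and 10861 in H3.3 G34W K36R, 23645 and 24316 in H3.1 wild type and 22644 and 10062 in H3.1 G34W. It rose in H3.1 against H3.3 wild type (log2 fold change 2.17 ± 0.36, adjusted p = 0.00166, 0.0521 in the close-pair fit). Itgav, the alpha v chain, was at 6535 and 6488 in H3.3 wild type, 8497 and 11721 in H3.3 G34W, 8971 and 9049.5 in H3.3 G34R and 6134 and 6544 in H3.3 K27R. It was at 7973 and 8132 in H3.3 G34W K27R, 14477 and 14761 in H3.3 G34W K36R, 20424 and 13597 in H3.1 wild type and 18665 and 12156 in H3.1 G34W and rose in the same comparison (log2 fold change 1.36 ± 0.29, adjusted p = 0.00666, 0.122 in the close-pair fit). Itgb1 was at 31409.8 and 31336 in H3.3 wild type, 37243 and 53374 in H3.3 G34W, 42809 and 43352 in H3.3 G34R and 35044 and 35979 in H3.3 K27R. It was at 32727 and 32632 in H3.3 G34W K27R, 47896 and 47968 in H3.3 G34W K36R, 66480.0 and 64136 in H3.1 wild type and 61839 and 40694 in H3.1 G34W, and it rose there too (log2 fold change 1.06 ± 0.27, adjusted p = 0.0130, 0.211 in the close-pair fit). No other comparison called any of these 3. Itga2b, the platelet alpha chain, was at 183 and 165 in H3.3 wild type and 45.5 and 57.7 in H3.1 wild type and fell (log2 fold change -1.74, adjusted p = 0.0162, 0.182 in the close-pair fit).

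Of the beta partners of alpha v, beta3 fell and beta5 rose in G34W K36R and in H3.1 wild type. Itgb3 was at 1287 and 1431 in H3.3 wild type, 532 and 1902 in H3.3 G34W, 2532 and 2349 in H3.3 G34R and 1729 and 1720.0 in H3.3 K27R. It was at 277 and 275 in H3.3 G34W K27R, 339.9 and 275 in H3.3 G34W K36R, 225 and 157 in H3.1 wild type and 208 and 373 in H3.1 G34W. It fell against G34W in G34W K27R (log2 fold change -1.86 ± 0.48, adjusted p = 0.0204) and in G34W K36R (log2 fold change -1.72 ± 0.48, adjusted p = 0.0228), with 0.351 and 0.363 in the close-pair fit. Leaving out G34W replicate 2, the higher of the G34W pair, or either library of the double mutant ended these calls (adjusted p up to 0.1002 and 0.125). It fell in H3.1 wild type too (log2 fold change -2.85 ± 0.59, adjusted p = 0.00532, 0.0716 in the close-pair fit). Itgb5 was at 7012 and 7014 in H3.3 wild type, 4698 and 6610.0 in H3.3 G34W, 8834 and 8889 in H3.3 G34W K36R and 10871 and 12371 in H3.1 wild type. It rose in G34W K36R against G34W (log2 fold change 0.67, adjusted p = 0.0172) and in H3.1 wild type (0.73, adjusted p = 0.0268), and neither held in the close-pair fit (0.469 and 0.270). The first ended without G34W replicate 1 or either G34W K36R library (adjusted p up to 0.0924). Its highest group mean was in K27R (13011 and 12398), where it was not called (adjusted p = 0.0723). Itgb6 and Itgb8 were at 10.8 to 219.9 and 8.79 to 179 over the libraries and did not pass the F test.

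The alpha4 and alpha9 chains bind VCAM-1, fibronectin and tenascin. Itga4 was at 236 and 223 in H3.3 wild type, 157 and 160.3 in H3.3 G34W, 77.7 and 91.99 in H3.3 K27R, 93.8 and 95.0 in H3.3 G34W K27R and 85.1 and 78.3 in H3.1 wild type. It fell in K27R against wild type (log2 fold change -1.43 ± 0.24, adjusted p = 0.0123), in G34W K27R against G34W (log2 fold change -0.74, adjusted p = 0.0222) and in H3.1 wild type (-1.48, adjusted p = 0.00151). None held in the close-pair fit (1, 0.718 and 0.135), and either K27R or either G34W K27R library ended the first 2 when left out (up to 0.0980 and 0.130). Itga9 was at 115 and 129.8 in H3.3 wild type, 810.4 and 328 in H3.3 G34W, 217 and 244 in H3.3 G34R and 40.4 and 38.6 in H3.3 K27R. It was at 346 and 233 in H3.3 G34W K27R, 151 and 172 in H3.3 G34W K36R, 68.2 and 54.7 in H3.1 wild type and 76.7 and 40.8 in H3.1 G34W. It fell in G34W K36R against G34W (log2 fold change -1.67 ± 0.42, adjusted p = 0.0139, 0.350 in the close-pair fit), a call that ended without G34W replicate 1 or either G34W K36R library (up to 0.0880).

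Of the 7 leukocyte chains, 4 were tested. Itgb7, which pairs with alpha4 or alpha E on lymphocytes, was at 106 and 108 in H3.3 wild type, 25.3 and 40.5 in H3.3 G34W, 31.3 and 33.8 in H3.3 G34R and 79.7 and 86.0 in H3.3 K27R. It was at 68.8 and 56.4 in H3.3 G34W K27R, 69.5 and 53.8 in H3.3 G34W K36R, 785 and 989.9 in H3.1 wild type and 529 and 156 in H3.1 G34W. It rose in H3.1 wild type (log2 fold change 3.03 ± 0.58, adjusted p = 0.00366, 0.0699 in the close-pair fit), and no single library ended that call. Its leukocyte partner Itgae was at 5.55 to 20.6 over the libraries and was called lower in G34W K27R against G34W (log2 fold change -1.34 ± 0.38, adjusted p = 0.0298, 0.651 in the close-pair fit), a call that ended when any 1 of 7 libraries was left out, G34W replicate 1 and both of G34W K27R among them (up to 0.175). Itgal, the alpha chain of LFA-1, was at 4.84 and 6.78 in H3.3 wild type, 56.3 and 25.1 in G34W, 7.44 and 4.99 in K27R, 23.7 and 25.4 in G34R, 7.76 and 5.84 in G34W K27R and 1.96 and 0.882 in G34W K36R, and at 0 in all 4 H3.1 libraries. In G34W K36R and H3.1 all libraries were under 3 reads. The means of Itgae and Itgal over the 16 libraries were 10.6 and 10.7. Both passed the filter of 10 only with their high G34W values included. A fall from G34W is thereby favoured, so their calls against G34W are no support for one. Itgal was called lower in both double mutants against G34W and in H3.1 wild type (adjusted p = 0.00842, 3.81e-04 and 0.00744; 0.402, 0.133 and 0.151 in the close-pair fit). The first call ended without G34W K27R replicate 2 (adjusted p = 0.0728). Its partner Itgb2 was at 4.14 to 58.2 and did not pass the F test. Of the 8 haematopoietic markers listed, 3 were at or above 3 reads in all libraries, and 4 were above it in none. The 3 were Lyz2 (7.25 to 136.5), Cd68 (12.5 to 55.8) and Csf1r (2.93 to 35.7). Lyz2 and Csf1r were highest in G34W replicate 1, as were Itgal and Itgb2, and Cd68 was highest in G34W replicate 2. The part of leukocyte-type cells in these values was not tested. Ptprc, the pan-leukocyte marker CD45, was at 0 to 2.13, and Cd3e was at 0 in every library.

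Genes that work with these chains were taken from 3 fixed lists. Of 23 tested integrin adaptor and focal adhesion genes (24 listed), 10 changed in H3.1 against H3.3 wild type, 8 higher and 2 lower. Of all genes 33.4% were called there, 16.3% higher and 17% lower. Bcar1, a scaffold of integrin signalling, was at 7869 and 8358 against 2315 and 2303 (log2 fold change 1.81 ± 0.45, adjusted p = 0.0118), the tyrosine kinase gene Src at 3305 and 3445 against 1366 and 1385 and Tns1, which encodes tensin 1, at 11652 and 7476 against 2597 and 2707; Tln2 (talin 2) and Tns3 (tensin 3) fell. In G34W K36R against G34W 4 rose, Lims1, Ptk2 (focal adhesion kinase) and Zyx among them (log2 fold change 1.08, 0.91 and 0.80, adjusted p = 3.85e-04, 0.00211 and 0.0433), and in G34W K27R 2 fell, Tln2 and Tns3 (log2 fold change -1.38 and -0.86, adjusted p = 0.00582 and 0.00641). Of all genes 30.6% were called in G34W K36R and 21.6% in G34W K27R against G34W. The single mutants and H3.1 G34W had no call in this list by limma (2, 1, 2 and 4 at an unadjusted p under 0.05 in G34W, G34R, K27R and H3.1 G34W). Of all genes 1.18%, 2.72%, 2.75% and 0% were called in these 4.

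Of 21 basement membrane partners and other laminin receptors, all tested, 5 rose and 6 fell in H3.1 wild type, 5 rose and 7 fell in G34W K36R and 2 rose and 4 fell in G34W K27R. Of all genes 33.4%, 30.6% and 21.6% were called in these 3 comparisons. G34R had 1 higher and 1 lower, K27R 1 higher, and G34W and H3.1 G34W none by limma (7 and 5 at an unadjusted p under 0.05). Of all genes 2.72%, 2.75%, 1.18% and 0% were called in these 4. Nid1, which encodes nidogen 1, the link between laminin and collagen IV, was at 4728 and 4760.1 in H3.3 and 26616 and 15656 in H3.1 wild type (log2 fold change 2.11 ± 0.35, adjusted p = 0.00174). It was at 7684 and 9408 in G34W and 33212 and 32492 in G34W K27R (log2 fold change 1.95 ± 0.29, adjusted p = 8.73e-04). Agrn, which encodes agrin, a laminin-binding proteoglycan, was at 3141 and 3037 in H3.3 wild type, 8721 and 9003 in G34R (log2 fold change 1.52 ± 0.27, adjusted p = 0.0180) and 916 and 604 in H3.1 wild type (log2 fold change -2.05 ± 0.27, adjusted p = 5.01e-04), and it fell in G34W K36R against G34W (log2 fold change -2.06 ± 0.22, adjusted p = 1.73e-04). Ntn4, a netrin that binds laminin, fell in the latter 2 comparisons too (log2 fold change -2.35 and -2.05, adjusted p = 6.62e-04 and 4.94e-04). Sdc1, the syndecan of epithelia, was at 9825 and 7553 in G34W and 2845 and 2868 in G34W K27R (log2 fold change -1.59 ± 0.13, adjusted p = 2.16e-05). Smoc2, a matricellular protein gene, rose in K27R against wild type, in both double mutants against G34W and in H3.1 wild type (log2 fold change 1.88, 1.64, 2.09 and 2.57). It fell in G34R (-0.96, adjusted p = 0.0274).

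Of 19 tested ligands of integrins other than laminins (22 listed), 3 rose and 4 fell in H3.1 wild type, 3 rose and 2 fell in G34W K36R and 3 rose and 3 fell in G34W K27R. Of all genes 33.4%, 30.6% and 21.6% were called in these 3 comparisons. G34W, G34R and K27R had 1 lower each, and H3.1 G34W none by limma (7 at an unadjusted p under 0.05). Of all genes 1.18%, 2.72%, 2.75% and 0% were called in these 4. Spp1, which encodes the RGD ligand osteopontin, was at 7651 and 7895 in H3.3 wild type, 1455 and 1333 in G34W, 1410.1 and 1501 in G34R and 21420.3 and 19630.2 in G34W K27R. It fell in G34W and G34R against wild type (log2 fold change -2.48 and -2.42, adjusted p = 0.0235 and 0.0134) and rose in G34W K27R against G34W (log2 fold change 3.88 ± 0.33, adjusted p = 2.85e-05). Npnt, which encodes nephronectin, a ligand of the alpha8 and beta1 integrin, was at 1257 and 319 in G34W and 4307 and 4240.3 in G34W K27R (log2 fold change 2.75 ± 0.59, adjusted p = 0.00796). Thbs2, which encodes thrombospondin 2, rose in G34W K27R and G34W K36R against G34W and in H3.1 wild type (log2 fold change 1.22, 1.70 and 1.68, adjusted p = 0.00113, 1.85e-04 and 5.77e-04). Tgfb1, whose latent form alpha v integrins activate, fell in the first (-0.68, adjusted p = 0.0166) and rose in the second (1.06, adjusted p = 0.00156). Edil3, an RGD protein that binds alpha v integrins, fell in K27R against wild type, in G34W K36R against G34W and in H3.1 wild type (log2 fold change -1.47, -1.48 and -2.65). In the close-pair fit none of the 1, 3 and 2 calls of these lists in G34W, G34R and K27R against wild type held, those of Spp1, Agrn, Smoc2 and Edil3. Of 14 in G34W K27R against G34W 3 held (Sdc1, Smoc2 and Spp1), of 21 in G34W K36R 1 (Smoc2), and of 28 in H3.1 wild type 4 (Agrn, Edil3, Smoc2 and Thbs2). Over the 3 lists 43 of 63 tested genes differed by the F test, against 66.6% of all genes, and 6 in the close-pair fit, against 8.13%.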

How the data were processed

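Polyadenylated RNA of 16 libraries in 8 transgene groups was sequenced. Per the submitters' processing notes the authors used RSEM 1.2.4 on mm9, and the deposited signal is expected counts, median normalized by the file's name; aligner, annotation and filters are not given in the sources used here. In each library all values were multiples of a hundredth of 1 step, which gives the depth and the floor of 3 reads. Whole reads within 0.01 made up 41.5% to 47.6% of values above 0, so no count test was used.

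log2(value + 1) was fitted for genes whose mean reached 10 (12670) over all groups with limma 3.58.1 in R 4.3.3 (trend and robust, statmod 1.5.0), two-sided, with Benjamini-Hochberg adjustment over all genes and calls below 0.05. Both libraries of H3.3 wild type were averaged (chi-square p = 0.935 over 2765 genes with whole reads, though p = 6.05e-63 over all 12462), leaving 15 samples and 7 residual degrees of freedom. Fold changes understate those of low genes. A pair counted as nearly alike where the SD of its log2 ratios over genes with at least 1000 reads was below 0.2.

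Members and lists were chosen with earlier results of these data known. Chains called in a comparison, Itgb1, Itgav, Itga5, Lamc1 and Lamb1 are named with values: by the rule, up to 6 called chains each way whose mean reached 50 in 1 compared group and whose libraries did not overlap. Of the other lists, up to 3 called genes each way were eligible. Alternatives were 2 pseudocounts (0.5 and 5), no filter, TMM rescaling, quantile normalization, separate wild-type libraries, close pairs as 1 sample, a replicate block, and each library left out in turn. Transcript lengths are from GENCODE M21, another build than the authors', and are approximate. A second, shorter deposited table repeats these values and was not used. The values of 1 tested laminin chain are not reported here, though it is part of every count.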

Additional observations from a re-analysis of the deposited data

How the results depend on the processing

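Of 51 calls of a chain in a comparison, none changed direction under any alternative, and TMM rescaling, both libraries of H3.3 wild type as samples and the replicate block ended none. A pseudocount of 0.5 ended 1, of 5 ended 3, no filter 9, quantile normalization 8 and nearly alike pairs counted as 1 sample 41. No single left-out library ended 30 of them. With nearly alike pairs as 1 sample the chains called were 9 over the 8 groups, 2 in G34W K27R, 2 in G34W K36R, 6 in H3.1 wild type, 0 in each single mutant against wild type, and 6 of the pathway genes; this fit has 11 samples, and 3 residual degrees of freedom. In G34W against wild type the count of 1 became 0 with a pseudocount of 0.5, 3 with 5, 2 with quantile normalization, 8 with separate wild-type libraries and 7 with the replicate block added to that. In G34R the count of 1 became 0 with a pseudocount of 5, 0 without a filter, 2 with quantile normalization, 7 with separate wild-type libraries and 5 with the block, and in K27R the 4 became 7 with separate libraries and 7 with the block. The cause was not tested. Leaving out 1 library gave 23 to 28 chains over the 8 groups, 0 to 9 in G34W, 0 to 3 in G34R, 1 to 7 in K27R, 5 to 12 in G34W K27R, 8 to 17 in G34W K36R, 0 to 6 in H3.1 G34W, 19 to 25 in H3.1 wild type and 35 to 51 pathway genes. A library left alone in its group borrows the spread of the others in these fits. The share of all genes called moved in them too, so these ranges are not particular to the chains. Replicate numbers did not pair the libraries: differences between replicates 2 and 1 correlated at -0.265 to 0.0598 in the 28 combinations of groups. Values that were not called changed sign when 1 library was left out. Ranges of log2 fold changes were -0.0862 to 0.00705 for Itgav in K27R, -0.34 to 0.20 for Lamc1 and -1.04 to 0.24 for Lamb1 in G34W K27R. They were -0.16 to 0.36 for Itgb1, -0.0649 to 0.47 for Lamc1 and -0.0177 to 1.26 for Lamb1 in G34W K36R. For H3.1 G34W they were -0.46 to 0.16 for Itgav and -0.40 to 0.37 for Lamb1 (0.0841 with quantile normalization), and for Lamc1 in H3.1 wild type -0.21 to 0.75 (-0.0424 with quantile normalization). Depth limits the chains near 3 reads, Itgal in G34W K36R and the H3.1 groups, Lama3 in the H3.1 groups and Lama1 in G34W K27R.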

Other observations

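Itgbl1 shares part of the integrin beta name and structure but not the symbol rule, and its values were looked at after the chains had been described. It was at 1035 and 1105 in H3.3 wild type. All other libraries were above these 2, from 2009.9 in G34W K27R to 6226 in K27R. Itga8, Itga7, Lamb1, Itga5 and Itgb1 also had both H3.3 wild-type libraries below every other library. The share of all genes with this order was not computed, so it is not shown to be particular to these genes. In the single comparisons with H3.3 wild type, 54.7% to 84.5% of all genes had no overlap. No test is given for Itgbl1, since it was picked after its values were seen.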
